A study of Drosophila melanogaster with 2 samples.

Results

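The small ribosomal subunit of the Drosophila cytoplasm is built from proteins whose genes carry RpS symbols, with sta as the exception in name. All protein-coding genes with a symbol of RpS and a digit were taken from the Ensembl dm6 annotation, together with sta, which gave 39 of 13968 protein-coding genes. Counting each set of copies as 1 protein, whether or not the copies are identical, they encode 32 proteins. Such sets hold 13 of the genes. The data were Ash1-GFP chromatin immunoprecipitation lists from whole Drosophila melanogaster embryos of both sexes, aged 0 to 24 h, of a transgenic strain in which GFP is fused to the C terminus of Ash1. The single group held 2 biological replicates, numbered 2 and 4, and an untagged strain was not among them. The labels describe both samples in free text as input controls, while their antibody and assay fields describe immunoprecipitation, and they were treated as immunoprecipitated. Each replicate, and both pooled, had a list of 30000 candidate regions, and 1567 pooled regions had passed the authors' irreproducible discovery rate (IDR) filter. Those 1567 were exactly the strongest pooled regions by the authors' signal value, whose scale is not stated. Read counts are not in the lists, so depth is unknown and values are given mainly as ranks, with 1 the strongest.

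Ribosomal protein genes are among the most highly transcribed genes of growing cells, and in flies the loss of a copy of many of them gives the Minute phenotype of slow growth and thin bristles. Their promoters in flies and mammals typically start transcription within a pyrimidine-rich stretch, the TCT initiator, in place of the common initiator. Ash1 is a trithorax group histone H3 lysine methyltransferase, best known for keeping developmental genes active against Polycomb repression.

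A gene was called bound when the strongest pooled region with its summit within 500 bp of any annotated transcription start site was in the IDR list, unbound when that region was not in the IDR list, and without candidate when no pooled summit lay within that distance. By these calls 21 of the 39 small-subunit genes were bound (53.8%), 14 were unbound and 4 had no candidate. Over all protein-coding genes 7.47% were bound (1044 of 13968). Of the 35 small-subunit genes with a candidate 60% were bound, against 16.7% of the 6270 protein-coding genes with one. Among large-subunit genes, 37 of 54 were bound (68.5%), 7 were unbound and 10 had no candidate. The difference between the subunits was not tested. At least 1 gene was bound for 20 of the 32 small-subunit proteins. Among the 100 strongest pooled regions were 2 small-subunit genes (5.13%), against 13 large-subunit genes (24.1%) and 0.644% of all protein-coding genes. Among the 500 strongest were 15 small-subunit genes (38.5%), against 25 large-subunit genes (46.3%) and 2.73% of all protein-coding genes. Counting a gene without candidate as lying beyond the end of the list, the median pooled rank was 963 for small-subunit genes and 821 for large-subunit genes, whereas 7698 of the 13968 protein-coding genes had no candidate, which leaves their median beyond the list. In replicate 2 alone, leaving out replicate 4, the medians were 1583 for small-subunit and 1490.5 for large-subunit genes. By the summit nearest to the start in place of the strongest region, they were 1653 and 821.

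**Figure D1:**
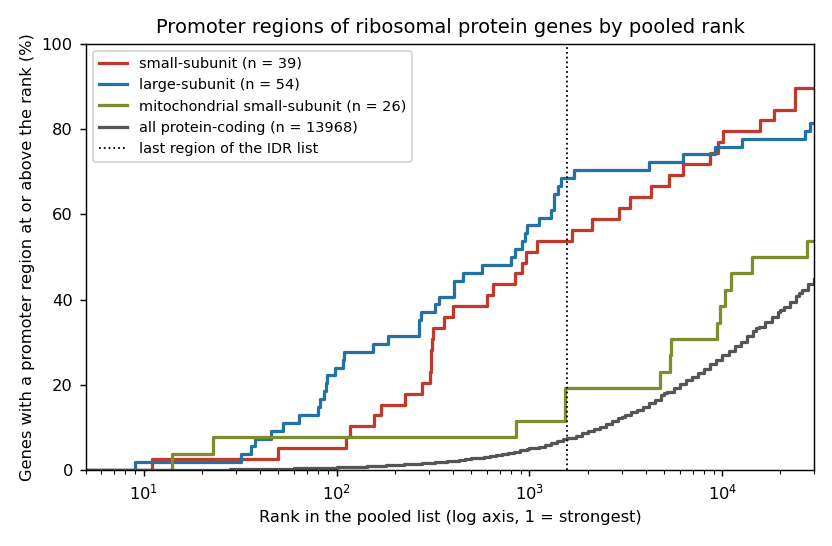
Share of genes in each set (y axis, percent) with a promoter region at or above a given pooled rank (x axis, log scale), for small-subunit, large-subunit, mitochondrial small-subunit and all protein-coding genes. The dotted line is the last region of the IDR list, where the small-subunit curve stands at 53.8% and the curve of all protein-coding genes at 7.47%.

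Sequence around the start sites is shown for genes that differ in binding, to let their promoters be read beside the ranks. Each window runs from 60 bases before an annotated start site through the first 16 transcribed bases, from the RefSeq copy of dm6, and reads along the gene's strand. Capitals mark every CTTT from 5 bases before the start onward, which is the core of the TCT initiator, and every TATCGATA (the DNA replication-related element, DRE) or GGTCACAC (the core of Motif 1) in either orientation. The following genes were picked from those with their own promoter region in the IDR list, and are ordered by pooled rank. They are not an unbroken run of the strongest, and the shares of genes with each motif are given below. For RpS27, RpS4 and RpS29 the printed start is the annotated alternative that holds the run, 39, 27 and 45 bp downstream of the summit.

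RpS27 (chr3R:25247457-25247532, minus strand): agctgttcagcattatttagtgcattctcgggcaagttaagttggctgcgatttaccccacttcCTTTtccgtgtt

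RpS4 (chr3L:13041741-13041816, plus strand): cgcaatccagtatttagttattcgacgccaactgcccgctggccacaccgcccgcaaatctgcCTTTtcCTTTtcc

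RpS25 (chr3R:11216272-11216347, minus strand): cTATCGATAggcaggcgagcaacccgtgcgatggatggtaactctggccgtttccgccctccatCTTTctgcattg

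RpS29 (chr3R:9778037-9778112, plus strand): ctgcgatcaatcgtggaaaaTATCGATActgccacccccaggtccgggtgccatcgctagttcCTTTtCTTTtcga

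RpS27A was among the strongest regions of both replicates without a pooled candidate, and RpS9 and RpS3 were unbound single-copy genes with pooled ranks of 6282 and 18469.

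RpS27A (chr2L:10408292-10408367, plus strand): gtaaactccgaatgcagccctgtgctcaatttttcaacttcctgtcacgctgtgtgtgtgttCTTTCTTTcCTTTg

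RpS9 (chr3L:9511516-9511591, minus strand): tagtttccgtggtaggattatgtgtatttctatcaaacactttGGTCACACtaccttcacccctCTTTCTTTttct

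RpS3 (chr3R:23358752-23358827, plus strand): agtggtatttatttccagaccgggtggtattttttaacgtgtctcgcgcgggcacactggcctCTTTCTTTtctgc

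The copies of 4 duplicated genes follow in pairs, the copy with a peak at its own start site first.

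RpS28b (chrX:9554563-9554638, plus strand): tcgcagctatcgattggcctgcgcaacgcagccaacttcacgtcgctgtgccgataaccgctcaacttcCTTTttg

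RpS28a (chr3R:30022633-30022708, minus strand): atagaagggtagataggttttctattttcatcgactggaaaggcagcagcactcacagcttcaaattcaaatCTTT

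RpS19a (chrX:16637834-16637909, plus strand): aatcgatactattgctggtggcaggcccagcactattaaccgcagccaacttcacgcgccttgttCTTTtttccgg

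RpS19b (chr3R:23933515-23933590, minus strand): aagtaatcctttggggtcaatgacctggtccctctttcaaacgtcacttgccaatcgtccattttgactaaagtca

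RpS5a (chrX:17148249-17148324, minus strand): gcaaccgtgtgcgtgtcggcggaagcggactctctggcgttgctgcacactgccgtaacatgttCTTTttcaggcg

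RpS5b (chr3R:14901548-14901623, minus strand): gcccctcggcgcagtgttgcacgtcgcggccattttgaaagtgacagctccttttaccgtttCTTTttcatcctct

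RpS14b (chrX:7934838-7934913, plus strand): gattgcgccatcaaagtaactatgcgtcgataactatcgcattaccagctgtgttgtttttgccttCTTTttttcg

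RpS14a (chrX:7933682-7933757, plus strand): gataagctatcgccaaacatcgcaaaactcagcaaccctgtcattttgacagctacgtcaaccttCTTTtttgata

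A CTTT within 5 bases of an annotated start site on the gene's strand was present in 25 of 39 small-subunit genes (64.1%), against 61.1% of large-subunit genes and 8.06% of all protein-coding genes. It was present in 14 of the 21 bound genes and in 11 of the other 18, and the unbound RpS3 and RpS9 carry it with pairs of adjacent repeats. Among protein-coding genes of neither subunit, 10.8% of the 1068 with the run were bound, against 6.80% of those without it. Both the run and the bound call were taken over every annotated start site of a gene. The number of start sites was not adjusted for in these shares. In RpS28b and RpS28a the run begins 9 and 12 bases after the printed start. With a window extended to 15 bases after the start, chosen after seeing these sequences, 31 of 39 small-subunit genes had it (79.5%), against 14.9% of all protein-coding genes.

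Other motifs were searched on both strands from 250 bases before to 50 bases after the gene's 5' end. TATCGATA was in 13 small-subunit promoters (33.3%), 27.8% of large-subunit promoters and 9.36% of all promoters. It was in 7 of the 21 bound genes, RpS25 and RpS29 among them, and in 6 of the other 18. GAGAG, the core of the GAGA factor site, was in 4 small-subunit promoters (10.3%), against 29.8% of all promoters. Within 100 bases of the summit, GAGAG was present in 4 of 21 bound small-subunit regions (19.0%) and 33.8% of the 807 bound promoter regions of protein-coding genes. GCCAT, the core of the Pho site, was in 41.0% of small-subunit promoters and 41.3% of all promoters. GGTCACAC was in 15.4% against 7.70%, TATAAA in 53.8% against 45.9%, and the E-box CACGTG in 2.56% against 4.23%. Within 100 bases of the summit, and among bound regions only, these 3 comparisons went the other way, on few regions. GGTCACAC was in 1 of the 21 bound small-subunit regions (4.76%) against 5.20% of the 807 bound promoter regions. TATAAA was in 3 (14.3%) against 23.5%, and CACGTG in 2 (9.52%) against 4.21%. In the same regions GCCAT was in 9 (42.9%) against 31.0%, and TATCGATA in 6 (28.6%) against 7.56%. Both the window and the set of genes differ here from the promoter counts. Over all 35 small-subunit regions, bound or not, GGTCACAC was in 4 (11.4%). These are matches of letters and not tests of any factor.

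Among the proteins of the head of the subunit, which moves during translation and contacts messenger and transfer RNA, 11 of 18 genes were bound, 5 were unbound and 2 had no candidate. RpS28b had the strongest region of the head genes, at pooled rank 112, rank 1155 in replicate 2 and rank 40 in replicate 4. RpS25, needed by several viral internal ribosome entry sites, ranked 118 in the pooled list, 170 in replicate 2 and 66 in replicate 4. RpS29 ranked 170, with 739 in replicate 2 and 93 in replicate 4. All 3 stood higher in replicate 4 than in replicate 2.

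RpS19a, whose human counterpart is mutated in Diamond-Blackfan anaemia, ranked 227 in the pooled list, 814 in replicate 2 and 116 in replicate 4. RpS16, which reaches the decoding site with its tail, ranked 276, with 776 in replicate 2 and 131 in replicate 4. RpS10b, at the messenger RNA entry side, ranked 305, with 468 in replicate 2 and 209 in replicate 4. The next head genes had pooled ranks from 310 to 401. RpS12, known in flies for its part in competition between cells with different ribosomal gene dose, ranked 310 in the pooled list, 1588 in replicate 2 and 125 in replicate 4. RpS18 ranked 315, with 1111 in replicate 2 and 133 in replicate 4. RpS5a, which lies near the messenger RNA exit, ranked 401, with 1457 in replicate 2 and 307 in replicate 4. RpS12 was the only one of these 6 outside the 1567 strongest regions of a replicate, by rank 1588 in replicate 2.

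RpS20 and RpS28a were the remaining bound head genes, and in both the peak lay nearer to another protein-coding gene. The RpS20 peak, pooled rank 963, was 228 bp upstream of RpS20 and 105 bp from a start site of CG17271, and the candidate nearest to RpS20 itself, 26 bp away, ranked 5253. In the replicates RpS20 ranked 504 in replicate 2 and 3533 in replicate 4. The RpS28a peak, rank 602, lay 484 bp downstream of its start, past the gene's end, and 57 bp from a start site of Mgat2. The unbound head genes included RpS15, RpS19b, RpS3 and RpS5b, with pooled ranks from 9442 to 23831, and RpS10a and RpS27A had no candidate.

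In the body and platform of the subunit, 10 of 20 genes were bound, 9 were unbound and 1 had no candidate, and RpS28-like was placed in neither domain. RpS27, a zinc-binding protein of the platform, had the strongest region of any small-subunit gene. It ranked 11 of 30000 in the pooled list, 43 in replicate 2 and 8 in replicate 4, with signal values of 555.9, 177.4 and 390.2. Its region, chr3R:25247401-25247639, is 239 bp wide, and its summit lay 3 bp into the 5' UTR and 147 bp from a start site of Nup37. RpS4 ranked 50, with 248 in replicate 2 and 26 in replicate 4. Its summit lay 18 bp downstream of the start, with no start site of another annotated gene within 500 bp. RpS3A, the only member on chromosome 4, ranked 156, with 340 in replicate 2 and 163 in replicate 4. These 3 were the body genes with pooled ranks better than 300.

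sta, named stubarista for its bristle and antenna phenotype, ranked 308 in the pooled list, 676 in replicate 2 and 246 in replicate 4. RpS23, which lines the decoding site, ranked 312, with 1323 in replicate 2 and 169 in replicate 4. RpS21 ranked 359, with 1044 in replicate 2 and 173 in replicate 4. RpS14b, RpS15Aa and RpS7 were spread more widely. RpS14b, of the platform, ranked 645, with 1583 in replicate 2 and 450 in replicate 4. RpS15Aa ranked 838, with 1137 in replicate 2 and 911 in replicate 4. RpS7 ranked 919, with 2337 in replicate 2 and 490 in replicate 4.

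The nearest member below the IDR list was RpS6, the subunit's target of S6 kinase in the TOR growth pathway. It ranked 1653 in the pooled list, while its ranks of 952 in replicate 2 and 1294 in replicate 4 were both within the 1567 strongest of that replicate. Its summit lay 78 bp downstream of the start, and the start sites of 2 noncoding genes, CR33222 and snoRNA:Or-aca2, were 49 and 50 bp from the summit. RpS14a followed at rank 2100, with 2390 in replicate 2 and 2167 in replicate 4. The other unbound body genes included RpS30, RpS13, RpS9, RpS2, RpS26 and RpS24, with pooled ranks from 3319 to 23799, and RpS9 had no candidate in replicate 2. Over both domains, 4 unbound genes ranked beyond 15000.

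**Figure D2:**
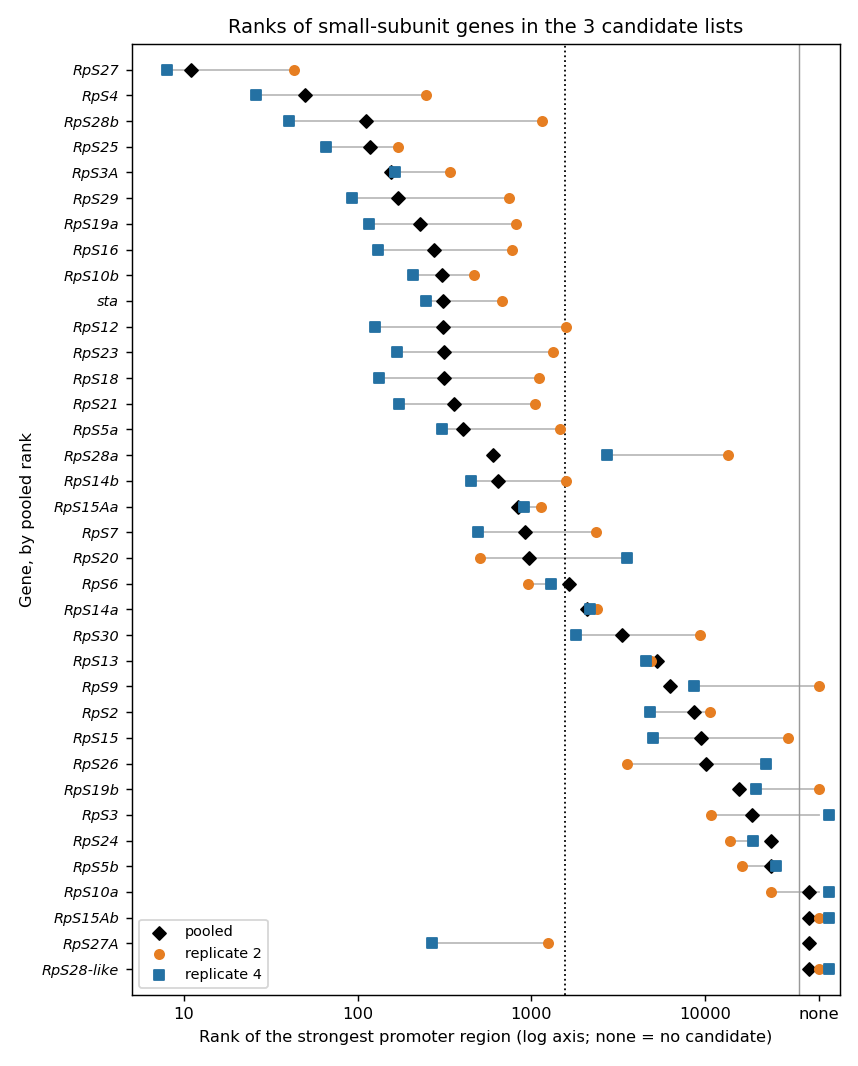
Rank of the strongest promoter region (x axis, log scale) of 36 of the 39 small-subunit genes (y axis, by pooled rank) in the pooled list (diamonds), replicate 2 (circles) and replicate 4 (squares), with genes lacking a candidate at the right edge and the last IDR rank dotted. Most bound genes stand further left in replicate 4 than in replicate 2, RpS20 is the bound exception, and RpS27A has marks for both replicates and none for the pooled list.

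The replicates differed in how high they placed these promoters. Of the 21 bound small-subunit genes, 20 had a better rank in replicate 4 than in replicate 2 (95.2%), as did 86.5% of the 37 bound large-subunit genes and 53.6% of the 1035 bound protein-coding genes listed in both replicates. These ranks are of the strongest region within 500 bp of a start site in each replicate, which at RpS28a and, in replicate 2, at RpS20 is not the region of the pooled peak. By replicate summits within 100 bp of the pooled summit, a comparison added after the data were seen, 19 of 20 bound small-subunit genes ranked better in replicate 4 (95%), with RpS28a the exception and RpS20 unmatched, against 86.1% of 36 large-subunit genes and 55.2% of 958 protein-coding genes. By strongest region, the bound small-subunit genes had a median rank of 814 in replicate 2 and 169 in replicate 4. The bound large-subunit genes had 449 in replicate 2 and 212 in replicate 4, and all bound protein-coding genes had 792 and 752. Including unbound genes, 27 of the 32 small-subunit genes listed in both replicates stood higher in replicate 4, against 49.4% of 4693 protein-coding genes. The source of this shift between the 2 replicates was not tested.

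In replicate 2 the strongest 1567 regions took in 19 of the 39 small-subunit genes, 27 of the 54 large-subunit genes and 1010 of the 13968 protein-coding genes. In replicate 4 they took in 22, 37 and 1017. Both sets held 18 of the 39 genes (46.2%), against 46.3% of large-subunit genes and 4.13% of all protein-coding genes. Of these 18 genes, 16 were bound and the other two were RpS6 and RpS27A. RpS28a was the bound gene in neither set. Its best candidates within 500 bp ranked 13594 in replicate 2 and 2735 in replicate 4. The replicate summits that matched its pooled peak within 100 bp ranked 464 and 1845, but lay more than 500 bp from its start.

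RpS27A, which encodes ubiquitin fused to a protein of the head, stood apart from the other 3 genes without a pooled candidate. It ranked 1250 in replicate 2, with a signal of 52.2 and the summit 3 bp upstream of the start. In replicate 4 it ranked 269, with a signal of 102.8 and the summit 37 bp upstream. The nearest pooled summit was 988 bp away and ranked 20450. Of the 711 regions shared by the strongest of both replicates, with summits within 100 bp of each other, this was the only one without a pooled candidate within 500 bp. RpS10a had a candidate in replicate 2 alone, at rank 24021, and RpS15Ab and RpS28-like had none in either replicate.

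Most summits of bound genes lay close to a start site. Distances to the nearest start site ranged from 2 bp at RpS18 to 484 bp at RpS28a, with a median of 18 bp, against 18 bp for bound large-subunit genes and 91 bp for all bound protein-coding genes. Within 50 bp lay 18 of 21 (85.7%), against 83.8% of large-subunit and 32.7% of all bound protein-coding genes. The summit was upstream of the start in 15 of 21 bound genes (71.4%), against 73.7% of all bound protein-coding genes. It was upstream in 2 of 14 unbound genes, and within 50 bp in 7 of them. Matching shares over all unbound protein-coding genes are not given here. With bound and unbound genes together, 71.4% of small-subunit genes with a candidate had the summit within 50 bp, against 30.3% of protein-coding genes. Among bound genes 11 summits fell in an annotated 5' UTR, 9 upstream of the gene and 1 downstream of it. Among unbound genes 7 fell in a 5' UTR, 2 upstream, 2 in an intron and 3 in a coding exon. In RpS13 and RpS19b, the unbound genes with the summit farthest from any start site, it lay 381 and 399 bp downstream of the nearest one, which in RpS13 is an internal alternative start.

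**Figure D3:**
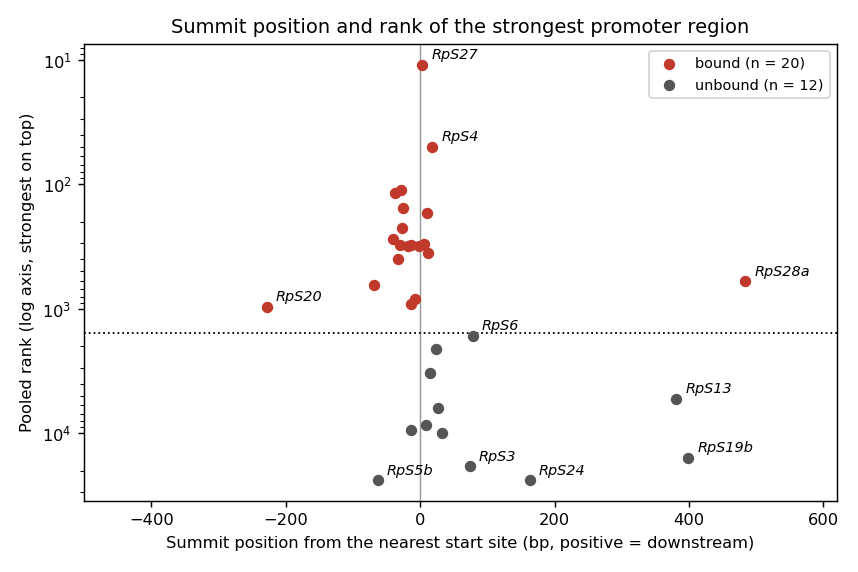
Pooled rank (y axis, log scale, strongest on top) against summit position from the nearest start site of the gene (x axis, bp, positive downstream) for 20 of the 21 bound and 12 of the 14 unbound small-subunit genes, with the last IDR rank dotted. All but 3 of the bound genes shown lie within 50 bp of the start, and 10 of the 12 unbound genes shown lie on its downstream side. Positions over all unbound protein-coding genes are not given.

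The peak belonged to the small-subunit gene by proximity in 19 of the 21, all with the summit within 68 bp of its start. Counting each region for its nearest protein-coding start site alone, 19 of 39 small-subunit genes (48.7%) and 36 of 54 large-subunit genes were bound, against 5.95% of all protein-coding genes. Another protein-coding gene had a start site within 500 bp of the summit at 10 of the 21 bound genes. At 9 no other annotated gene had a start site there. In the pooled list 336 bp was the most frequent width. Narrower regions were found at 11 bound small-subunit genes (52.4%), down to 100 bp at RpS29, and at 20.6% of all bound protein-coding genes. All 11 were among the 15 small-subunit genes in the 500 strongest regions, where 52.8% of the 381 protein-coding genes had narrower regions. The median GC content within 100 bases of the summit was 46.3% for bound and 45.8% for unbound small-subunit genes.

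In each of the 6 sets of copies a single gene had a peak at its own start site. RpS28b ranked 112 with a signal of 250.2, and RpS28a had only a weak candidate of rank 20107 near its own start, 157 bp upstream, beside the peak at Mgat2. The encoded proteins are 81.5% identical. RpS28-like, with 36.8% and 38.2% identity to RpS28a and RpS28b, had no candidate. RpS19a ranked 227, with a signal of 195.1, and RpS19b, whose expression in flies is biased to the germline, ranked 15741 with a signal of 31.8. Their proteins are 65.4% identical, and RpS19b had no candidate in replicate 2 and rank 19715 in replicate 4. RpS5a ranked 401 with a signal of 158.5, against 23831 and 25.1 for RpS5b, also biased to the germline, with 78.5% protein identity. In the replicates RpS5b ranked 16316 in replicate 2 and 25605 in replicate 4. In these pairs the weaker copy lay more than 10000 ranks below the stronger one.

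RpS10b ranked 305 with a signal of 174.3, whereas RpS10a, 73.6% identical in protein, had no pooled candidate. RpS15Aa ranked 838 with a signal of 120.2, and RpS15Ab, 97.7% identical in protein and 98.2% in coding sequence, had none. RpS14b and RpS14a, a tandem pair on the X with identical proteins, were closest in rank. RpS14b ranked 645 with a signal of 132.1 and its summit 68 bp upstream, and RpS14a ranked 2100 with a signal of 82.0 and its summit 23 bp downstream. In replicate 2 the ranks were 1583 for RpS14b and 2390 for RpS14a, and in replicate 4 they were 450 and 2167. Coding sequence of the pair is 97.8% identical, so reads from inside these genes, and from RpS15Aa and RpS15Ab, may not be assigned to 1 copy with certainty. Their promoters differ. Over the 8 pairs of copies, promoter windows aligned at 50.1 to 55.6% identity, within the 45.8 to 58.5% of the 733 other pairs of small-subunit promoters.

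**Figure D4:**
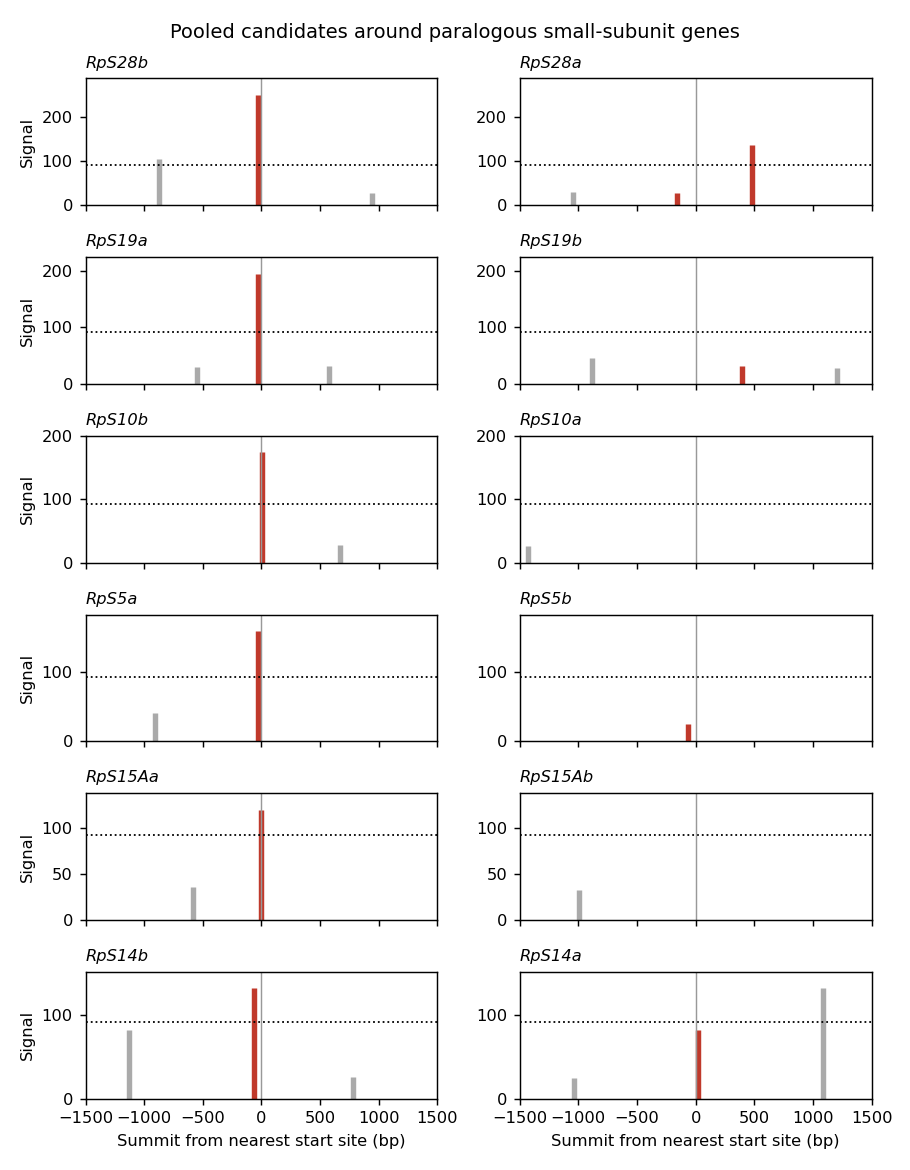
Signal of pooled candidates (y axis, the authors' scale) by summit position from the nearest start site (x axis, bp) for 6 pairs of copies, with candidates within 500 bp in red, others in grey and the lowest signal of the IDR list, 92.5, dotted. The left copy of each pair has a red line above the dotted one at its start site, and among the right copies RpS28a alone has one, 484 bp downstream.

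Of 26 single-copy genes 14 were bound, and of 13 genes with copies 7 were bound. By chromosome arm, 7 of 9 genes on the X, 7 of 12 on 3R, 2 of 4 on 3L, 3 of 7 on 2R, 1 of 6 on 2L and the single gene on chromosome 4 were bound. Shares of all protein-coding genes bound on each arm are not given here. Differences between arms were not tested. Of 13 small-subunit genes with annotated snoRNA genes inside them, 10 were bound, while of 67 such host genes outside both subunits 18 were bound (26.9%). The number of annotated start sites moved with the calls. Of 20 small-subunit genes with several start sites 15 were bound, against 6 of 19 with a single one, and over all protein-coding genes the shares were 14.9% and 4.78%. The part of start-site number in the calls was not tested.

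Genes of related function were counted in the same way. Of 26 mitochondrial small-subunit genes, 14 had a candidate and 5 were bound (19.2%), and none was bound when each region counted for its nearest start site alone. Among 12 genes of small-subunit assembly or association, 1 was bound (8.33%, against 7.47% of all protein-coding genes), 5 were unbound and 6 had no candidate. The bound one was Rack1, which sits on the head of the mature subunit and ranked 157 in the pooled list, 1124 in replicate 2 and 74 in replicate 4, with its summit 17 bp upstream of the start. The nucleolar methyltransferase Fib and the box C/D proteins Nop56 and nop5 were unbound, at ranks 5688, 6562 and 6872.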

How the data were processed

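Each candidate list came from calling peaks against the same single control alignment, per the deposited file notes. Not given in the sources used here are the aligner, the peak caller and the IDR cutoff. Per the labels' protocols, chromatin was sonicated to 200 to 800 bp. Regions were ranked by the deposited signal value, and the deposited −log10 q-value, which saturates, was not used. Start sites came from Ensembl release 115 and sequence from the RefSeq copy of dm6. Transposable elements were left out. Promoter windows and protein identities were computed from these with Biopython 1.88, pandas 2.3.3 and numpy 2.4.6, and the assignment was tested on simulated regions. The members, lists and motifs were chosen with earlier results of these data known, so no test over them was run. All 39 members enter the counts, and 3 of them are not reported individually here. By rule, the other bound genes and copies have values in both replicates, and other members are given by range. RpS6, RpS27A and the other members singled out were chosen after their values were seen. Domains of the subunit were assigned by textbook placement after values were seen. Of 13 assembly genes 12 matched the annotation. Alternatives were other distances, thresholds, start-site rules, summit choices, motif windows and each replicate alone.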

Additional observations from a re-analysis of the deposited data

How the results depend on the processing

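Of 56 alternative values, 48 stayed within 1.5 times the value reported and 8 did not. The bound count of small-subunit genes ranged from 15, with the 500 strongest pooled regions, to 22, with replicate 4 alone. Bound protein-coding genes numbered 381 under the 500 strongest regions and 1017 with replicate 4 alone. They numbered 682 when a region had to overlap a start site. Taking the nearest summit instead of the strongest, the median pooled rank of small-subunit genes was 1653, and with each replicate left out in turn it ranged from 911, without replicate 2, to 1583, without replicate 4. With the 1000 strongest of each replicate, 10 small-subunit genes were in both, against 18. Within 100 bases of the summit, instead of the promoter window, GAGAG was found at 17.1%, CACGTG at 8.57% and TATAAA at 11.4% of the 35 small-subunit regions. The causes of these shifts were not tested. No paired analysis was possible because both samples belong to 1 group and no test was run. Unknown depth, an unstated signal scale and a control shared by both replicates limit how ranks can be compared, and no untagged strain was analysed here.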
